A study of Mus musculus with 9 samples.

Results

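These data describe the DNA methylation of CpG sites in splenic B cells of wild-type mice. The cells are the controls of a study of Kmt2d, the gene of a histone H3K4 methyltransferase, and the labels put 2 of the 9 samples of the series in this group. The other 7 samples, B cells heterozygous or homozygous for a point mutation of Kmt2d and blood depleted of B cells, were not analysed here. The members were chosen by genotype: of the 3 pairs of count columns in the deposited table, the 1 pair named for wild-type B cells was used, on the autosomes. The sources used here do not give whether that pair holds 1 of the 2 wild-type samples or both, so it was treated as 1 set of counts. It has no replicate check, and intervals cover counting error only. Spleens were brought into suspension and B cells were kept by magnetic depletion of other cells. The sample may thus mix B cell subsets of the spleen and any cells the depletion left. Which of these it holds was not tested. The mice carried no treatment, and the labels used here give no strain or age. Whole-genome bisulfite sequencing converts unmethylated cytosines and leaves methylated ones, and here it used 200 ng of DNA sheared to 800 bp and paired reads of 150 bp.

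In mammals nearly all DNA methylation lies at CpG sites, and most CpGs of a differentiated cell are methylated. CpG islands, short stretches rich in CpGs, are mostly kept unmethylated at gene starts, whereas the bodies of transcribed genes carry high methylation. Short valleys of low methylation away from islands often mark enhancers bound by transcription factors, and Polycomb-bound developmental genes can lie in wide unmethylated stretches. In B cells, factors such as PAX5 and EBF1 set up the lineage program, with the B cell receptor and its signalling chain among their targets.

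Most autosomal CpGs were methylated. Of 20383623 autosomal CpGs, covered by 193984954 CpG reads, the level (methylated reads over covering reads, summed) was 76.0%. The mean depth was 9.52 reads per CpG, the median 8, and 12% of CpGs had no read. Among 8881867 CpGs with at least 10 reads, 66.3% stood at or over 80% and 10.2% under 20%. Mitochondrial DNA, which carries little CpG methylation, stood at 0.492%. Chromosomes ranged from 72.6% (chromosome 11) to 77.9% (chromosome 16). Methylation was shared over short distances: across pairs of CpGs, Pearson's correlation of single-CpG levels was 0.960 at 2 to 10 bp, 0.884 at 100 to 150 bp, 0.622 at 500 to 1000 bp and 0.0927 at 2000 to 5000 bp. This is a description across pairs that share reads at short distances.

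Gene starts divided into an unmethylated majority and a methylated minority, and the division followed CpG islands. A start window ran from 1000 bp before to 500 bp after the start and needed at least 30 CpG reads. Of 20665 protein-coding autosomal genes 19233 were measured, 15297 at a start given by the RefSeq promoter table and 3936, for which the table has no entry, at the gene end with more CpGs. Of all windows, 59.8% stood under 20% and 17.8% at or over 80%, with a median of 524 CpG reads behind a window. The median was 5.47% over 11595 windows with an island and 76.5% over 7638 without one. The number of CpGs in the window sorted the genes as well. Windows with 11 to 20 CpGs had a median of 80.4%, those with 31 to 40 one of 26.4%, and those with 81 or more one of 3.0%.

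Around starts with an island the level dropped from 72.0% at 4800 to 5000 bp upstream to 1.44% in the first 200 bp of the gene. Starts without an island also carried a dip, to 37.7% in the last 200 bp before the start, from 73.0% at 4800 to 5000 bp upstream. In bins of 500 bp, the starts of 33 B lineage genes without an island stood at 25.1% in the bin before and 22.6% (95% interval 21.3 to 24.0) in the bin after the start. At 69 such starts of genes of other blood lineages, whatever their depth, the level was 40.6% before and 50.4% (49.2 to 51.7) after. These intervals hold counting error over pooled reads and not the spread between genes.

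**Figure D1:**
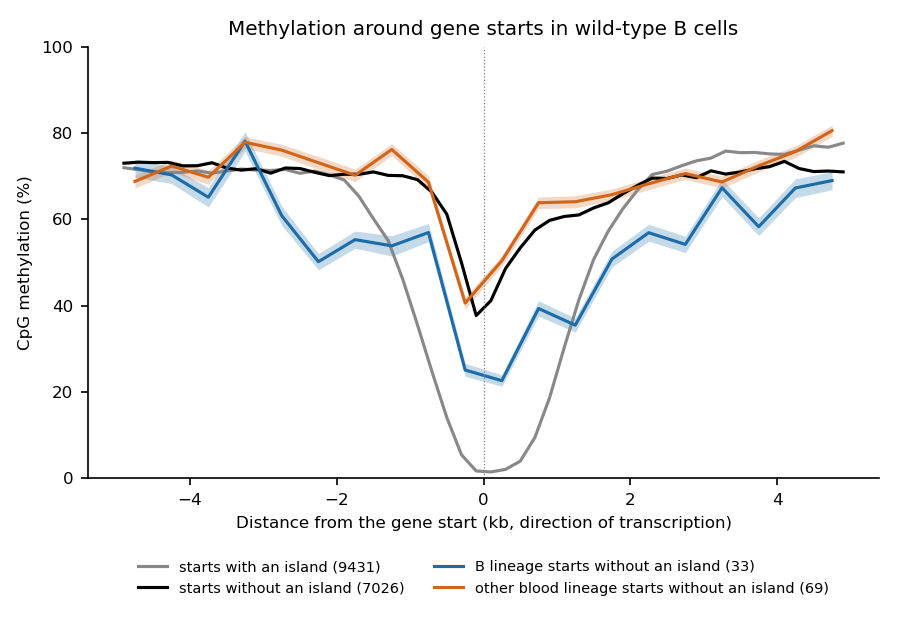
CpG methylation (%) against the distance (kb) from the gene start, pooled over genes with a start in the promoter table, in bins of 200 bp for all genes and 500 bp for the lineage genes; bands are 95% Wilson intervals. Starts with an island reach 1.44%, and the 33 B lineage starts without an island (22.6%) lie below the 69 of other blood lineages (50.4%) in the 500 bp after the start.

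The sequences just upstream of 9 starts show how few CpGs carry these differences outside islands. Each line gives the 250 bases before the start from RefSeq (GRCm38.p6), 5′ to 3′ on the gene's strand, with CG in capitals. Pax5 (chr4:44710695-44710944, minus strand) stands for B lineage starts with an island, and Cd79a (chr7:24897247-24897496, plus), Blnk (chr19:40994222-40994471, minus) and H2-Aa (chr17:34287824-34288073, minus) for those without. Cd3g (chr9:44980432-44980681, minus) is a T cell gene, Lyz2 (chr10:117282273-117282522, minus) and Itgam (chr7:128062390-128062639, plus) are myeloid genes, and Klf1 (chr8:84901732-84901981, plus) and Hbb-bs (chr7:103827929-103828178, minus) erythroid genes. Blnk, Cd3g and Itgam were chosen after their values were seen.
Cd79a: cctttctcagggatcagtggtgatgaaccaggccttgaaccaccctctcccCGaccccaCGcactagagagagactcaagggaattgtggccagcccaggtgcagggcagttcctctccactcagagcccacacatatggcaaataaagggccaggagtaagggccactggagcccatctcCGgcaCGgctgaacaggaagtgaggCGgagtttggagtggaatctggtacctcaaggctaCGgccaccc
Pax5: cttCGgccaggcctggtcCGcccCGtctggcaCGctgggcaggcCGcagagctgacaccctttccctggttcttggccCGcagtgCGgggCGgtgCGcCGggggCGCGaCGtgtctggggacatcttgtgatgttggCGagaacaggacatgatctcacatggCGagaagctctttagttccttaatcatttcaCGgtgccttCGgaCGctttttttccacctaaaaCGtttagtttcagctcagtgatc
Blnk: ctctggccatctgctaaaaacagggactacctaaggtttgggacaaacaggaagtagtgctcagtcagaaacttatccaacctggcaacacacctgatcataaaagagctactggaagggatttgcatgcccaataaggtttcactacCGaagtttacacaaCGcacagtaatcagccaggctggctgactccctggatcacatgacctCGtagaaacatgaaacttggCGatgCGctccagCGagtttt
H2-Aa: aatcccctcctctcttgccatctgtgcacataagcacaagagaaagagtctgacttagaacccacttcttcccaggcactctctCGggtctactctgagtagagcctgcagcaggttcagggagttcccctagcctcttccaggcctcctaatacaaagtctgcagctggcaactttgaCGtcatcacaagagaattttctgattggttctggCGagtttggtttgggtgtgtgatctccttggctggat
Cd3g: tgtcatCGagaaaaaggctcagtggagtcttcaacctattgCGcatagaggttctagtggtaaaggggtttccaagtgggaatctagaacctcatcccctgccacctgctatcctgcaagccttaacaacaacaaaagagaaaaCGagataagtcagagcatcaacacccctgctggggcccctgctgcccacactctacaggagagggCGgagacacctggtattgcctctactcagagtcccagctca
Lyz2: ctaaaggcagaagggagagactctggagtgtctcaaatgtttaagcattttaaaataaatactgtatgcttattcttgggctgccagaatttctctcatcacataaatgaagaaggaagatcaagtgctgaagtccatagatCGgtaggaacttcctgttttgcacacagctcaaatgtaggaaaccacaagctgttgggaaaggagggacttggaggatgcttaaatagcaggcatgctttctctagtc
Itgam: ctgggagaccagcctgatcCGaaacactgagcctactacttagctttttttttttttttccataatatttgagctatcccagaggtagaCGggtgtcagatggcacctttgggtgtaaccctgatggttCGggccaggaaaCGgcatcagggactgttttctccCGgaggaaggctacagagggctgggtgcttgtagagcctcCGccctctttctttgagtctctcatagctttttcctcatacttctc
Klf1: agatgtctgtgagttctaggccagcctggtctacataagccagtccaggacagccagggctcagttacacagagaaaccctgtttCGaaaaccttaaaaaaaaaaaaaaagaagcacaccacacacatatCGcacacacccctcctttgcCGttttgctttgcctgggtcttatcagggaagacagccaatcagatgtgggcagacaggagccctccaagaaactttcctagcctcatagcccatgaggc
Hbb-bs: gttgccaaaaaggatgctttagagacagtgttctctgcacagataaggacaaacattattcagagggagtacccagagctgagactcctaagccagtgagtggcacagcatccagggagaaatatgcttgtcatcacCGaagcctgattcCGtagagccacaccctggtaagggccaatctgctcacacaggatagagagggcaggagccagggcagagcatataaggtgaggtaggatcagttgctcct
Over 31396 autosomal promoter entries the median count of CG in these 250 bases was 6, and 7.64% had none. In the order printed, the 9 sequences hold 6, 19, 6, 3, 4, 1, 6, 3 and 2, of which 1 each in Blnk, H2-Aa and Klf1 had no read. Pax5 stood at 6.88% over 247 CpG reads. In Cd79a, which encodes the Ig-alpha signalling chain of the B cell receptor, the CpGs at 199 and 191 bases before the start had 5 of 17 and 8 of 21 reads methylated, and the 4 nearer ones 1 of 19, 1 of 17, 1 of 12 and 0 of 14. Blnk, an adaptor of receptor signalling, had 2 methylated reads of 46, and H2-Aa, the alpha chain of an MHC class II molecule, 2 of 55. Cd3g, a chain of the T cell receptor complex, was mixed: its CpGs at 244, 209, 106 and 41 bases before the start had 11 of 18, 16 of 21, 2 of 23 and 9 of 21 reads methylated. The myeloid examples were low: the only CpG of Lyz2, the macrophage lysozyme, had 0 methylated reads of 19 (upper bound 16.8%, Wilson), and Itgam, the integrin CD11b, 5 of 58. The erythroid examples were high, though not all starts of their list were, as given below. Klf1, the erythroid Krüppel-like factor, had 25 methylated reads of 32 and Hbb-bs, an adult beta globin, 43 of 50. A CG here is a match of letters, not a known regulatory site.

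Starts of B lineage genes had lower medians than those of other blood lineages, and among genes without an island also a lower median than genes in general. The 68 genes of 4 B lineage lists had a median of 18.8%, with 35 under 20%, or 51.5% against 59.8% of all genes, and 6 at or over 80%. The 102 measured genes of 4 lists of other blood lineages had a median of 54.1%, with 18 under 20% and 12 at or over 80%. Over all genes the median was 12.2%. An island lay over 23 of the B lineage, 15 of the other lineage and 11595 of all 19233 windows. Among genes without an island and with a table start, 10 of 33 B lineage windows stood under 20% and 2 of 67 of the other lineages, against 14.7% of all 5952 such genes. The medians were 33.5%, 59.6% and 76.0%. A run of low methylation (at least 4 CpGs over at least 100 bp with a running level under 50%) lay over 30 of the 33 B lineage windows and 36 of the 67 others, against 35.0% of all. By its median and its pooled share of low runs each group of blood genes was less methylated than these genes as a whole. By the count under 20% only the B lineage was, and the NK list had low runs over 4 of 14 windows. In the core from 250 bp before to 50 bp after the start, 19 of 26 B lineage genes and 17 of 43 others stood under 20%, against 36.2% of all 3542, with medians of 9.29%, 25% and 56.4%. The share of the other lineages under 20% was thus close to the background in the core.

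**Figure D2:**
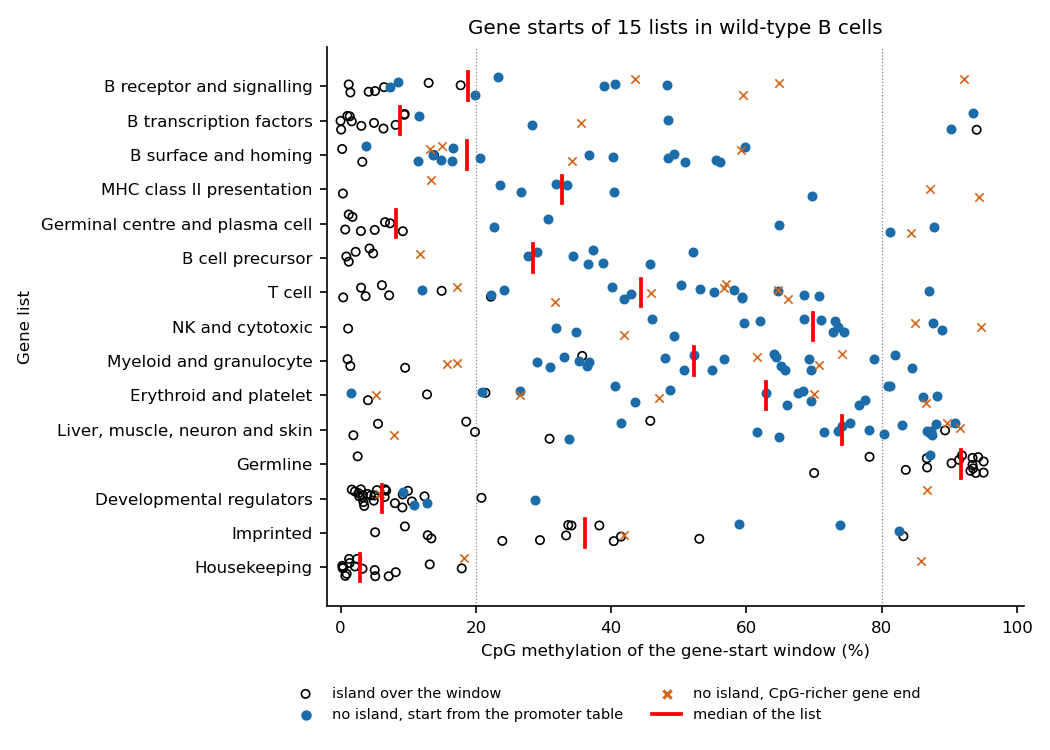
CpG methylation (%) of the gene-start window of each measured member of 15 gene lists; open circles have an island over the window, filled circles have none and a start from the promoter table, crosses have none and use the CpG-richer gene end, red lines are list medians and dotted lines mark 20% and 80%. B lineage medians lie between 8.78% and 32.7%, those of other blood lineages between 44.4% and 69.8%.

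The receptor and signalling list of 18 genes had a median of 18.8%. Its lowest starts were Syk (1.20%), a kinase of receptor signalling, Lyn (1.45%), a Src family kinase, and Pik3ap1 (4.15%), an adaptor to PI3 kinase. Cd79a stood at 38.9% (34.8 to 43.1) over 522 CpG reads in the wide window and 16.4% in the core, and Cd22, an inhibitory coreceptor, at 19.9% (15.7 to 24.9). Bank1, a scaffold protein, stood at 23.3% in the window and 2.0% in the core, and Btla, an inhibitory receptor, at 7.32% and 0 of 170 reads. Of the genes of this list with a table start, no island and a measured core, 7 of 7 stood under 20% in the core, against 36.2% of all such genes. In the other B lineage lists 2 of 4 (transcription factors), 7 of 11 (surface and homing) and 3 of 4 (MHC class II) did. Among the highest of the receptor and signalling list were genes without a table entry, Blk and Cd79b, for which both gene ends are given. The ends of Blk, a Src family kinase, stood at 64.9% and 39.5%, and those of Cd79b, the Ig-beta chain, at 59.5% and 23.1%. Cd79b had the lowest body of the list (21.5%), followed by the phosphatase gene Ptpn6 (51.5%) and Cd79a (58.4%). The body of Cd79b was measured from inside its CpG-richer end to the other end, so it may hold the gene's start. The highest bodies were Lyn (84.1%), Plcg2 (83.7%) and Prkcb (82.9%).

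B cell transcription factors had the lowest median of the lineage lists, 8.78% over 18 genes, of which 12 have an island. Bcl11a had 0 methylated reads of 510 (upper bound 0.748%), Foxo1 stood at 0.0828% and Ebf1 at 1.0%. Pax5 stood at 9.42% (7.29 to 12.1) over 573 CpG reads, and Pou2af1, the coactivator OBF-1, at 28.4% (23.9 to 33.3) without an island. The highest windows were Spi1 (94.0%), Mef2c (93.4%) and Bach2 (90.2%). Spi1, the PU.1 gene, has no table entry, and its other end stood at 41.9%. Mef2c has 3 table starts, of which the most upstream was measured. The first base of Bach2, a repressor of plasma cell fate, in the gene annotation lies away from the table's start, and the window there stood at 13.4%. The lowest bodies were Spib (30.2%), Ets1 (58.8%) and Ikzf1 (61.3%), and the highest Zfp318 (89.4%), Tcf3 (87.5%) and Bach2 (84.2%).

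Of the surface and homing genes 11 of 22 starts stood under 20%, against 59.8% of all genes. Among the 19 without an island 8 did, against 14.3% of all genes without one. Cd24a (0.236%), Ralgps2 (3.22%) and Cd37 (3.73%), a tetraspanin gene without an island, were lowest, and Ly86 (59.8%), Cxcr5 (59.2%) and Fcrla (56.1%) highest. Cr2, the complement receptor CD21, stood at 13.6% (10.2 to 18.0) and at 0.719% in the core. Ms4a1, the CD20 gene, without a table entry, stood at 15% at its CpG-richer end and 87.6% at the other. Fcer2a, the low-affinity IgE receptor CD23, stood at 49.3% (37.8 to 60.8) over 69 CpG reads. Cxcr5, the follicular homing receptor, stood at 59.2% at its CpG-richer end and 24.3% at the other, with a body of 48.5%. Its body and those of Ccr7 (42.9%), a homing receptor for lymphoid tissue, and Fcmr (56.8%) were the lowest of this list. Those of Cr2 (89.8%), Siglecg (89.7%) and Cd72 (88.6%) were the highest.

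Of the 10 MHC class II genes only 2 starts stood under 20%, H2-DMa (0.344%), with an island, and H2-Ab1 (13.4%), with H2-DMb2 (23.5%) next. H2-Aa stood at 33.5% (27.4 to 40.1) in the window and 3.64% in the core. Ciita, the class II transactivator, had ends at 94.3% and 75.9%, and Cd74, the invariant chain, at 87.1% and 52.7%, both without a table entry. With H2-DMb1 (69.7%) they were the highest. Bodies ranged from 27.4% (H2-Oa), 60.01% (H2-DMa) and 63.1% (H2-Eb1) to 83.0% (H2-DMb2), 88.2% (H2-DMb1) and 91.0% (H2-Ob). Members of this family are similar in sequence, and the labels do not say how reads that match several were placed.

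Genes of later and earlier B cell stages stood under 20% about as often as genes in general, or less often. At table starts without an island the median was 36.9% over 8 precursor genes, against 33.5% in B lineage genes and 76.0% in all. A low run lay over all 8 of these windows, against 35.0% of all genes, and 0 of the 8 stood under 20%. For 5 germinal centre and plasma cell genes that median was 64.9%, with low runs over 3. Of 14 germinal centre and plasma cell genes, 8 starts stood under 20% (59.8% of all genes), all of them with an island. Bcl6 (0.691%), the germinal centre repressor, Mybl1 (1.21%) and Prdm1 (1.75%), the plasma cell regulator BLIMP-1, were lowest, and Tnfrsf17 (87.7%) and Jchain (81.2%) were among the highest. The bodies of Bcl6 (52.0%) and Tnfrsf17 (65.1%) were among the lowest of the list, and the highest were Xbp1 (94.3%), Mybl1 (92.1%) and Fut8 (89.0%). Of 14 B cell precursor genes 6 stood under 20%, below that share, the lowest Cecr2 (0.856%), Lef1 (1.21%) and Sox4 (2.23%), and none at or over 80%. The highest were Vpreb2 (52.1%), Vpreb1 (45.7%), surrogate light chain genes, and Rag1 (38.7%), a recombinase of receptor gene rearrangement, with 8.22% in its core. Rag2 stood at 29.1% and had one of the lowest bodies (53.6%), between Sox4 (1.59%) and Cd93 (67.6%). Cecr2 (87.4%), Igll1 (86.2%) and Il7r (83.5%) had the highest.

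The T cell list had the lowest median of the other blood lineages, 44.4% over 30 genes. Transcription factors of T cells with an island were unmethylated, Gata3 at 0.393% (0.134 to 1.15), Bcl11b at 3.03% (2.01 to 4.55) and Tcf7 at 3.70%. Markers of T cells varied. Cd3e stood at 50.3% (44.9 to 55.7) over 322 CpG reads, Lck, the kinase of T cell receptor signalling, at 53.2% (47.8 to 58.5), and Cd8a at 64.7% (59.8 to 69.3). Cd4, with an island at its CpG-richer end and no table entry, stood at 7.18% there and 46.9% at the other end. Ptcra (86.9%), Trat1 (70.8%) and Cd3d (68.6%) were highest. Bodies were lowest in Thy1 (51.5%), Cd3d (51.8%) and Cd2 (55.0%) and highest in Ptcra (87.0%), Lat (85.8%) and Themis (84.4%).

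Natural killer and cytotoxic genes had the highest median of the blood lists, 69.8% over 18 genes, and only Eomes (1.12%), with an island, stood under 20%. Prf1 (31.8%), the perforin gene, and Nkg7 (34.8%) followed. Ncr1, an activating receptor, stood at 68.5% (58.3 to 77.2) and Gzmb, granzyme B, at 74.5% (68.6 to 79.6). Ccl5 (94.7%), Cd160 (88.9%) and Klrc1 (87.6%) were highest. Bodies ranged from Eomes (61.2%), Klrd1 (64.4%) and Cd160 (77.8%) to Prf1 (90.1%), Gzmk (90.7%) and Xcl1 (91.3%).

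Myeloid and granulocyte genes had a median of 52.3% over 29 measured genes. Cebpa (1.03%) and Cebpb (9.54%), transcription factor genes with an island, were among the lowest, and Ngp (84.4%), S100a9 (82.0%) and Camp (78.8%), granule and calprotectin genes, were highest. Lyz2 stood at 35.2% (27.8 to 43.4), Mpo, the myeloperoxidase of granules, at 31% (25.7 to 36.9) and S100a8 at 36.5% (31.1 to 42.2). Csf1r, the macrophage growth factor receptor, has no table entry and stood at 74.1% and 60.1% at its ends. Cores were lower than windows for several of these genes. Csf3r, the granulocyte growth factor receptor, had 0 methylated reads of 72 in the core against 50.7% in the window, Siglech 0 of 52 against 52.3%, and Itgam 8.62% against 64.1%. Csf3r and Siglech were chosen after their values were seen. In all, 6 of 13 cores of this list stood under 20%, near the 36.2% of all such cores. Bodies were among the lowest in Prtn3 (30.7%) and Mmp9 (41.1%) and highest in Lyz2 (87.6%), Ltf (87.0%) and Itgax (86.6%).

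Erythroid and platelet genes had a median of 62.9% over 25 measured genes. Gfi1b (1.56%), a transcription factor gene, Ank1 (4.05%) and Nfe2 (5.23%) were lowest, and Hbb-bs (88.1%, 77.5 to 94.1), Slc4a1 (86.6%) and Gp6 (86.1%, 36 CpG reads) highest. Klf1 stood at 76.6% (68.4 to 83.2). Of the genes of this list with a table start and no island, 5 of 12 cores stood under 20% and 1 at or over 80%. The share under 20% was near the 36.2% of all such cores. The alpha globin copies Hba-a1 and Hba-a2, near identical in sequence, are uncertain at 35 and 37 CpG reads. Bodies were lowest in Tal1 (39.8%), Nfe2 (53.0%) and Itga2b (60.2%) and among the highest in Klf1 (89.0%) and Gp1ba (87.7%).

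Set side by side as a check of the labelled cell type, the starts of the B cell markers Pax5, Ms4a1, Cd22 and Cd79a stood between 9.42% and 38.9%. Cd79b, without a table entry, stood at 59.5% at its CpG-richer end and 23.1% at the other. Of the T cell markers, Cd3e, Cd3d, Cd3g, Lck and Cd8a stood between 50.3% and 68.6%. Bcl11b (3.03%) and Cd4 (7.18% at its CpG-richer end), both with an island, stood below the range of these B cell markers. The NK markers Ncr1, Klrb1c and Gzma stood between 49.3% and 73.1%, and the erythroid markers Klf1 and Hbb-bs at 76.6% and 88.1%. Myeloid markers overlapped the B cell range, from 31% (Mpo) to 82.0% (S100a9). Methylation at a start does not measure expression, and the share of other cells in the preparation was not tested.

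Reference lists framed these values. Starts of 18 housekeeping genes had a median of 2.85%, from Polr2a (0.256%), Rps18 (0.318%) and Hsp90ab1 (0.405%) to Rplp0 (17.9%), Actb (18.2%) and Ywhaz (85.8%). Actb, Ywhaz and Hsp90ab1 have no table entry, and the other ends of Actb and Ywhaz stood at 68.7% and 90.6%. Among their lowest bodies were Actb (9.54%) and Ywhaz (47.2%), and their highest were Tbp (94.6%), Hsp90ab1 (92.1%) and Polr2a (91.5%). Kmt2d itself had 3 methylated reads of 899 at its start (0.334%) and a body of 86.7%. Germline genes, which somatic cells silence by promoter methylation, were highly methylated in spite of islands: 17 of 18 have an island, 15 stood at or over 80%, and the median was 91.6%. Brdt (95.1%), Slc25a31 (95%) and Sycp1 (94.2%) were highest, and Zpbp2 (2.53%), Tdrd1 (70.0%) and Piwil1 (78.2%) lowest. Germline bodies lay between Dazl (77.6%), Brdt (78.4%) and Piwil1 (81%) and Slc25a31 (90.6%), Dpep3 (91.3%) and Hormad1 (93.6%). Genes of liver, muscle, neurons and skin had a median start of 74.1%, from Actn2 (1.89%), Gad1 (5.54%) and Snap25 (7.87%) to Ins2 (89.6%), Alb (90.8%) and Ttr (91.6%). Their bodies ran from Lor (1.5%), Myod1 (37.4%) and Gfap (42.6%) to Ttn (87.4%), Actn2 (87.4%) and Ttr (88.4%).

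Imprinted genes, which are methylated on 1 parental copy at their control regions, had a median of 36.2% over 18 genes. Of the 18, 12 stood between 20% and 80%, against 22.4% of all starts and 9.14% of starts with an island. Intermediate windows included Nap1l5 (53.0%, 47.9 to 58.1), Igf2r (41.5%), Plagl1 (40.4%), Zrsr1 (38.3%), Kcnq1ot1 (33.7%) and Peg3 (29.5%), named after their values were seen. Grb10 (5.11%), Sgce (9.51%) and Peg10 (12.9%) were lowest and Mcts2 (83.2%), Mest (82.5%) and Snrpn (73.8%) highest. For Mest and Snrpn the most upstream table start was measured. Their bodies ran from Zrsr1 (58.7%), Mest (66.1%) and Peg13 (66.4%) to Plagl1 (87.5%), Sgce (87.9%) and Nnat (95.2%).

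Low-methylated regions outside islands, of the kind that often marks enhancers, numbered 66490 and covered 35.1 Mb. They had a median level of 22.1%, a median length of 417 bp and a median of 7 CpGs. Only 5.18% lay at a gene start, 46.6% inside genes and 48.2% between them, and 73.7% lay over 10000 bp from a gene start. Per 100 kb of gene, B lineage genes held 9.82, other blood lineages 8.50 and all protein-coding genes 3.37. The lists did not divide by lineage: developmental regulators held 9.97 and genes of liver, muscle, neurons and skin 8.26, while germinal centre and plasma cell genes held 3.91. Of the other lists, MHC class II genes held 20.5, T cell genes 10.9, surface and homing genes 10.5 and B transcription factors 10.3, against 5.95 in myeloid, 5.17 in erythroid, 2.45 in housekeeping and 1.42 in germline genes. The lineage genes with the most regions between their ends were Bach2 (32), Ets1 (31), an ETS factor of lymphocytes, Skap1 (25), a T cell adaptor, and Bcl11b and Pou2f2, the OCT2 gene (20 each). Pax5 and Ebf1 held 16 each. These counts grow with gene length, and Bach2 spans 347697 bp.

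Regions of low methylation gathered in some 100 kb windows. The median window held 1, 34.4% held none and 6.12% held at least 10. The windows with the most are named here after their values were seen, with no test of the genes they hold. The highest count was 28, in the window with Il2rb, the IL-2 receptor beta chain, Rac2, a GTPase of blood cells, and Cyth4 (chromosome 15, 78500001 to 78600000). Counts of 26 were found at Selplg, the P-selectin ligand, at Adgrg5 and Adgrg1, and at the neural gene Slit1. The window of Cd82 held 25, that of Ccr7 24 and those of Irf8 and Fli1, transcription factors of blood cells, 23. Some held genes of other tissues, such as Pax7 (23), a muscle progenitor factor.

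Among regions without an island by the density rule used here, the longest were 8378 bp over the start of Slc17a6, a glutamate transporter gene of neurons, and 8282 bp near Gata3. Several wide ones near genes of blood cells were nearly unmethylated. A region of 5304 bp over the start of Cytip, a lymphocyte adaptor, stood at 1.35% over 892 CpG reads, and one of 6579 bp over a start of Cbfa2t3, a blood corepressor gene, at 9.84% over 1057. These were chosen after their values were seen.

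Along 4 lineage factor genes the low stretches differed in width. At Pax5 the bins of 1 kb from 4000 bp before the start to the start stood between 1.57% and 7.11%, and a further stretch inside the gene, 6000 to 9000 bp from the start, between 1.25% and 3.33%. A bin at 37000 bp stood at 8.89% and one at 46000 bp at 14.3%. At Ebf1 the bins from 1000 bp before to 2000 bp after the start stood at 0.702%, 1.9% and 4.74%, and an inner bin at 89000 bp at 11.7%. Ebf1 had a further low stretch before its start, with 2.32% to 3.37% in the bins from 7000 to 4000 bp upstream. The T cell factor Gata3 had low bins upstream of the measured start as well, with 1.46% at 11000 bp and 6.19% at 18000 bp before it. The first base of Gata3 in the gene annotation (9887953, minus strand) lies upstream of the measured start (9878600). The bin at 11000 bp is thus near that base. Bcl11b had inner bins of 12.3% at 4000 bp, 12.6% at 12000 bp and between 14.7% and 17.4% from 25000 to 28000 bp.

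**Figure D3:**
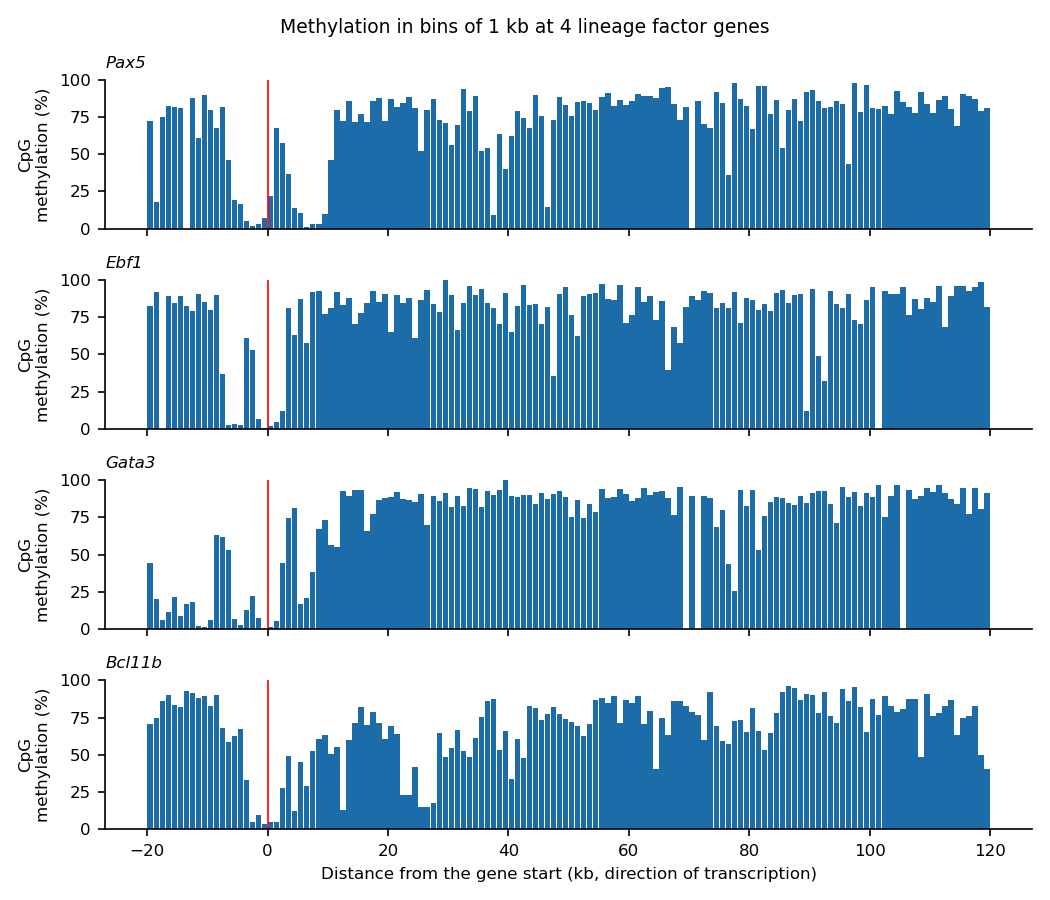
CpG methylation (%) in bins of 1 kb against the distance (kb) from the start of Pax5, Ebf1, Gata3 and Bcl11b, in the direction of transcription; red lines mark the start, and bins with under 10 CpG reads are left blank. Low stretches lie at each start and, in Pax5, again 6 to 9 kb inside the gene (1.25% to 3.33%).

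Gene bodies were methylated in most genes. Measured from 2000 bp inside the start to the far end, 17544 bodies had a median of 84.6%, with quartiles of 78.7% and 89.7%, and 70.8% stood at or over 80%. The windows over the far ends of 11854 genes of at least 5000 bp had a median of 87.9%. Bodies of genes whose start was under 20% with an island had a median of 87.2%, and 32.9% of them stood at or over 90%. Where the start was at or over 80%, the median was 82.0% and the share at or over 90% was 8.63%. Long bodies were more uniform: over 300000 bp the median was 82.3%, and 3.01% stood at or over 90%. Bodies under 60% made up 6.53% of all genes, against 9 of 65 B lineage genes, 11 of 88 genes of other blood lineages and 24 of 27 developmental genes. The median body was 72.8% in B lineage genes and 79.5% in other blood lineages. With bodies from 5000 bp inside the start these medians were 77.5% and 79.9%.

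Among bodies with at least 500 CpG reads the lowest were Gm20346 (0.370%), Hes7 (0.446%), a transcriptional repressor of somite formation, Gm52006 (0.605%), Irf2bp2 (0.932%) and Sp9 (1.17%). Their bodies were 1146 to 3691 bp long. The highest were Pycrl (96.4%), Repin1 (96.3%), Mex3b (96.3%), Ndufv1 (96.3%), a subunit of respiratory complex I, and Armc5 (95.9%).

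Most measured CpG islands were either nearly unmethylated or nearly fully methylated, and the share of each differed by place. Islands were found from CpG positions alone, longer than 200 bp with at least 6 CpGs per 100 bp. Of 25310 islands 17972 were measured and 4228 had no read. Of those measured 76.5% stood under 20%, 19% at or over 80%, and 806 between. At gene starts 97.5% of 10588 islands stood under 20% and 1.08% at or over 80%. Inside genes 51.7% of 4358 stood under 20% and 38.0% at or over 80%, and between genes these shares were 38.4% and 54.6% of 3026. The measured part differed by place. It was 10588 of 10710 islands at starts, 4358 of 6078 inside genes and 3026 of 8522 between genes. Of the islands between genes 3197 had no read.

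**Figure D4:**
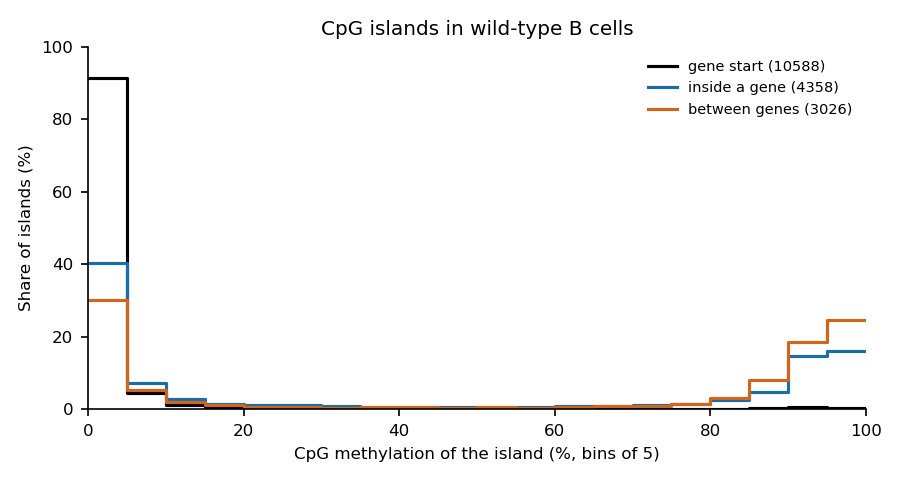
Share of measured islands (%) against the CpG methylation of the island (%, bins of 5) for islands at gene starts (10588), inside genes (4358) and between genes (3026). Islands at starts crowd at the low end, with 97.5% under 20%, and those between genes split into 38.4% under 20% and 54.6% at or over 80%.

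Most developmental regulators, the classic targets of Polycomb repression, had low bodies as well as low starts. Of 30 starts 27 stood under 20%, with a median of 6.14%, near the 89.8% of all starts with an island, which 24 of the 30 have. The median body was 14.6%, against 84.6% over all genes. Low starts included Irx3 (2.12%) and Gata6 (2.66%), and the highest were Sox17 (20.8%), Hoxa9 (28.7%) and Gata4 (86.7%), the last without a table entry and with 37.9% at its other end. Bodies were lowest in Nkx2-5 (3.44%), Sox1 (4.67%) and Sox17 (4.86%) and highest in Gata6 (62.4%), Pax3 (62.7%) and T (83.9%), the brachyury gene. The 5 longest runs under 10% lay at or near such genes. The first was 19710 bp long near Pax6, the eye and brain factor (6.45% over 7473 CpG reads), followed by 15961 bp at Hoxc11, 15651 bp at Olig2, 15328 bp at Ptf1a and 14951 bp at Nr2e1. In all 538 such runs were at least 3500 bp long and 27 at least 10000 bp.

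At the scale of 100 kb the methylome was even, and low windows were those rich in islands. The median over 23922 windows was 80.3%, its 0.01 and 0.99 quantiles were 51.0% and 90.6%, and 817 (3.42%) stood under 60%. The median was 82.1% in windows without an island and 49.5% in the 30 windows with 11 or more. Outside islands and 2000 bp around them the window median was 82.1%, and 68 windows stood under 60%. The 5 lowest windows with at least 1000 CpG reads held the Hoxc cluster from Hoxc13 to Hoxc6 (chromosome 15, 102900001 to 103000000, 11.5%), no protein-coding gene (chromosome 17, 39800001 to 39900000, 14.1%), Zic1 and Zic4 (chromosome 9, 20.6%), Evx2 and Hoxd13 to Hoxd9 (chromosome 2, 22.8%), and Hoxa3 to Hoxa13 (chromosome 6, 23.2%). The window on chromosome 17 had 150 reads per CpG and stood at 76.9% outside its island, and 3 windows in all had over 4 times the mean depth. The Hoxc window was low outside islands too, at 14.8%. The highest windows lay inside Rngtt (94.4%), the mRNA capping enzyme, Cep128 (94.3%), Usp32 (94.3%), Birc6 (94.2%) and Kmt2c (94.0%), a relative of Kmt2d.

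**Figure D5:**
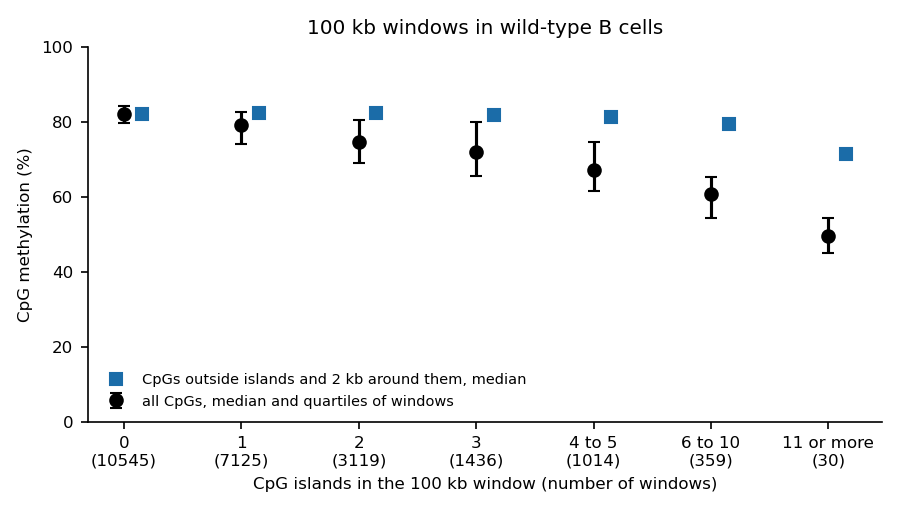
CpG methylation (%) of 100 kb windows with at least 1000 CpG reads against the number of CpG islands they hold; circles are medians with quartiles as bars, squares are medians over CpGs outside islands and 2 kb around them. The median of all CpGs runs from 82.1% without an island to 49.5% with 11 or more, and that outside islands from 82.1% to 71.5%.

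The antigen receptor loci, which B and T cells rearrange, ranged around the autosomal level. Igh, the immunoglobulin heavy chain locus (chromosome 12, 113258768 to 116009954), stood at 67.9%, Igk at 82.6% and Igl at 79.4%. The T cell receptor loci Tcra and Tcrb stood at 77.9% and 77.8%. Depth over these loci was 3.90 to 6.66 reads per CpG, below the autosomal mean of 9.52.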

How the data were processed

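Bisulfite-treated DNA of splenic B cells was sequenced as whole genomes. The deposited table gives, per the file headers, counts of methylated reads and of covering reads at each CpG. The submitters' processing notes name Trim Galore 0.2.8, Bismark, Bowtie2, Picard 1.91, BWA 0.7.13, Picard 2.3.0, MethylDackel and the build mm10. The sources used here do not give which of these made the wild-type columns, or how duplicates were handled. The 4 other columns of values were not used.

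Levels are methylated over covering reads, summed over the CpGs of a region with at least 30 CpG reads. Intervals are 95% Wilson intervals. They hold counting error alone, with CpGs on 1 read counted as if independent. Starts come from RefSeq promoters (GRCm38.p6), the most upstream where there are several. A gene without an entry was measured at its CpG-richer end, and its body runs from 2000 bp inside that end to the other. Where the start lies at the other end, such a body holds it. Islands were scored from CpG positions (17 per CpG, -1 per other base). Low runs need 4 CpGs, 100 bp, a running level over 3 CpGs under 50%, at least 5 reads in each running window and gaps of at most 500 bp. Those without an island are the low-methylated regions. Python 3.11.15, numpy 2.4.6, pandas 2.3.3 and numba 0.67.0 were used. The finding of low runs was tested on simulated data, and the finding of islands was not tested.

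With 1 set of counts no test between groups was made, and wild-type values were compared with no other genotype. Genes named are, in each list, the 3 with the lowest and the 3 with the highest start and body, markers of each cell type, the 5 lineage genes with the most low-methylated regions, and extreme regions, with exceptions said in the text. Some genes under this rule are left unreported here, but stay in the counts and medians. The members and lists were chosen with earlier results of these data known. Alternatives to the windows, limits, weighting and starts were tried.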

Additional observations from a re-analysis of the deposited data

How the results depend on the processing

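Over 14 summary values and 76 alternatives, 54 values stayed within the intervals or, for counts, within 1.5 times, and 22 moved. For a median, the interval was that of 1 region with the median level and median reads, and not the spread between genes or windows. For the autosomal level it ran only from 75.9985% to 76.0105%. The number that moved thus depends on these widths. The core window of 250 bp before to 50 bp after the start gave start medians of 3.09% in B lineage genes and 23.9% in other blood lineages. In it 42 B lineage starts, 33 of other blood lineages and 12360 of all stood under 20%, against 35, 18 and 11500 in the main setting. Of all starts, 1775 stood at or over 80%, against 3417. Fewer starts had 30 CpG reads in the core, so these counts cannot be read as shares. A window of 1000 bp on both sides gave a B lineage median of 25.2%, and the CpG-richer end for every gene 26.6%, with 63.0% in other blood lineages. With starts in the promoter table only, an alternative chosen after seeing the data, 10 of 76 genes of other blood lineages stood under 20%. The main setting gave 18 of 102. Thus B lineage starts were the lower group under each of these windows, while the level depended on the window. Bodies from 5000 bp inside the start gave a B lineage median of 77.5%, and means of single-CpG levels 74.5%. The autosomal level was 76.4% as a mean over CpGs with at least 5 reads, 75.8% with at least 10, and 76.1% without CpGs over 4 times the mean depth. Of windows of 100 kb, 211 stood under 50% and 3448 under 70%. Outside islands 68 stood under 60%, with a median of 82.1%. Windows of 50 kb gave 2662 of 47689 (5.58%) under 60%. Those of 500 kb gave 51 of 4812 (1.06%), with a median of 78.6%. A running level under 30% left 36855 low-methylated regions. Of 9735 measured islands over 500 bp, 8954 (92.0%) stood under 20%, a higher share than the 76.5% of all 17972 measured islands. The cause of each move other than the changed window, limit or size was not tested. No paired analysis was possible because 1 set of counts was used. Depth limits single CpGs, with a median of 8 reads, and short cores more than whole windows.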

Other observations

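The far ends of genes give a view of methylation away from starts. Of 11854 far ends 74.0% stood at or over 80% and 361 under 20%. The far end of Cd79a, a short gene not among those counted, stood at 2.27% over 176 CpG reads, against 38.9% at its start. This gene was chosen after its values were seen.

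Windows of 100 kb that lie fully inside genes and windows free of genes had like medians, 82.7% over 3660 and 81.9% over 8305. Windows partly covered by genes had medians of 74.2% to 77.8%. Other windows with many low-methylated regions, chosen after their values were seen, held Gpr183, a receptor that guides B cells within follicles (22), Ly9 and Cd244a, of the SLAM family of lymphocyte receptors (22), and Smad3, a mediator of TGF-beta signalling (22).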
